A study of Mus musculus with 6 samples.

Results

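Alternative splicing in epithelial cells is steered by a small group of RNA-binding proteins, and 7 of their genes are described here: Esrp1, Esrp2, Qk, Rbfox2, Mbnl1, Mbnl2 and Ptbp1. The members are all probe sets that the platform annotation assigns to one of these symbols alone, which gave 25 of the 45037 probe sets on the array and 7 of its 18193 named genes. Qk has 7 of them, Mbnl2 has 5, Rbfox2 has 4, Mbnl1 and Ptbp1 have 3 each, Esrp2 has 2 and Esrp1 has 1. No probe set with several symbols names a member.

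The cells are 344SQ, a lung cancer line grown from a subcutaneous site of mouse 344, an animal that carried the mutant p53 allele p53R172H∆g/+. Both groups carry this background and a lentiviral vector, and both were selected with puromycin as GFP-positive pools. The control cells hold the control vector, and the miR-200 cells hold a vector that expresses the miR-200b-200a-429 cluster. Each group has 3 cultures with 1 array each, named by group and a letter from A to C. The line is a mass population from 1 animal and each group is a pool of transduced cells. Nothing says that the cultures came from separate transductions, so p-values cover the spread between these cultures, which may be technical. A stable difference between the pools cannot be told apart from an effect of the microRNAs.

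Esrp1 and Esrp2 bind GU-rich motifs near exons and favour the splice forms typical of epithelial cells, for example of Fgfr2, Cd44, Ctnnd1 and Enah. Qk, the quaking protein, and Rbfox2, which recognises UGCAUG, favour many of the opposite, mesenchymal splice forms. Mbnl1 and Mbnl2, the muscleblind proteins, promote splice forms of differentiated cells, and Ptbp1 represses exons through pyrimidine-rich tracts. The miR-200 family is known to repress Zeb1 and Zeb2, which in turn are known repressors of Esrp1 transcription, and Qk has been described as a target of the family.

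The expressed microRNAs are shown because their seeds, bases 2 to 8 from the 5′ end and given in capitals, set which transcripts they can pair with. The mature sequences are those of RefSeq on GRCm38.p6, where the mouse cluster lies on the minus strand of chromosome 4. miR-200b-3p (chr4:156055685-156055706) and miR-429-3p (chr4:156053916-156053937) share 1 seed, and the seed of miR-200a-3p (chr4:156054911-156054932) differs from that of miR-200b-3p by U4C, counted from the 5′ end with the base of miR-200b-3p first.
miR-200b-3p: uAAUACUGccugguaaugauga
miR-429-3p: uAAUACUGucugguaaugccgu
miR-200a-3p: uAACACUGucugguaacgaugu
The microRNAs themselves were not analysed here.

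Values are log2 signals after quantile normalization, and a difference is the miR-200 mean less the control mean, with its standard error (SE) from limma. Adjusted p-values are from limma with Benjamini-Hochberg adjustment over all 45037 probe sets, and the threshold is 0.05. The table gives no detection calls, so background is gauged by the brightest of the array's probe sets for bacterial trp RNA, 5.28. Where the dimmer group's mean lies under it, the fold is a lower bound taken from the gauge. With 3 arrays per group, the number of arrays limits the precision. Arrays read RNA from whole cultures, so fewer cells of a kind and less RNA per cell cannot be told apart, and no probe set here resolves exon inclusion.

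One array of each group, miR-200 A and control B, differed from its group mates in a shared way. Over the brightest 60% of probe sets, the deviations of these 2 arrays from their group means correlated at 0.71. Both arrays held the lowest 2 values for 6 of the 25 member probe sets, against 13.4% of all probe sets. They held the highest 2 for 0 members, against 13.1% of all probe sets. The 6 with the lowest values are 1 probe set of Esrp2, 1 of Qk, 3 of Rbfox2 and 1 of Mbnl2. Where leaving out this pair ended a call, turned a direction or moved a member's difference by over 1.5 times, the value without it is given. Of 12 epithelial markers, 11 had both group means above the gauge, among them Cdh1 (13.14 to 13.46) and Krt18 (13.90 to 13.94). In the miR-200 cells 4 rose and 0 fell, against 0.945% of all genes that passed. With no adjustment, limma gave p under 0.05 for 5 higher markers and 1 lower one, against 14.8% of all genes in either direction. The lower one was Krt19, which differed by -0.39 ± 0.14. In the control cells the mean of the claudin marker Cldn4 was 3.52, under the gauge, and those of Cldn7 and Cldn3 were 5.71 and 6.38, above it. Of 9 lung markers measured, 1 fell (Sftpb); Nkx2-1 read 6.55 to 7.36 and Sftpc stayed under the gauge on every array (3.95 to 4.85). Of 10 fibroblast, 9 leukocyte and 8 endothelial markers measured, 0 passed the test in limma. An unadjusted p under 0.05 in limma was found for 1, 1 and 0, against 14.8% of all genes. Both group means were under the gauge for 6, 3 and 6. The leukocyte genes Csf1r (9.34 to 9.94), Cd14 (9.54 to 11.86), Adgre1 (8.55 to 9.04) and Cd68 (5.73 to 8.98) were above the gauge on all arrays. Ptprc lay at 5.29 to 5.91, close to the gauge, and Cd3e at 4.08 to 5.49. Itgam, Lyz2 and Tyrobp were under the gauge on all arrays. The part of these leukocyte genes in the results was not tested.

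Of the 25 member probe sets, 1 rose (Esrp1) and 1 fell (Mbnl2). Over all probe sets, 0.258% rose and 0.486% fell. In 9 of the 25 the groups did not overlap, 4 with higher and 5 with lower miR-200 values, against 21.3% of all probe sets. With no adjustment, 3 members were higher and 4 lower at p under 0.05 in limma, against 14.1% of all probe sets in either direction. The median difference of the members was 0.13, that of all probe sets 0.03. Of the 25 probe sets, 2 had both means under the gauge, 1 of Qk and 1 of Mbnl1.

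**Figure D1:**
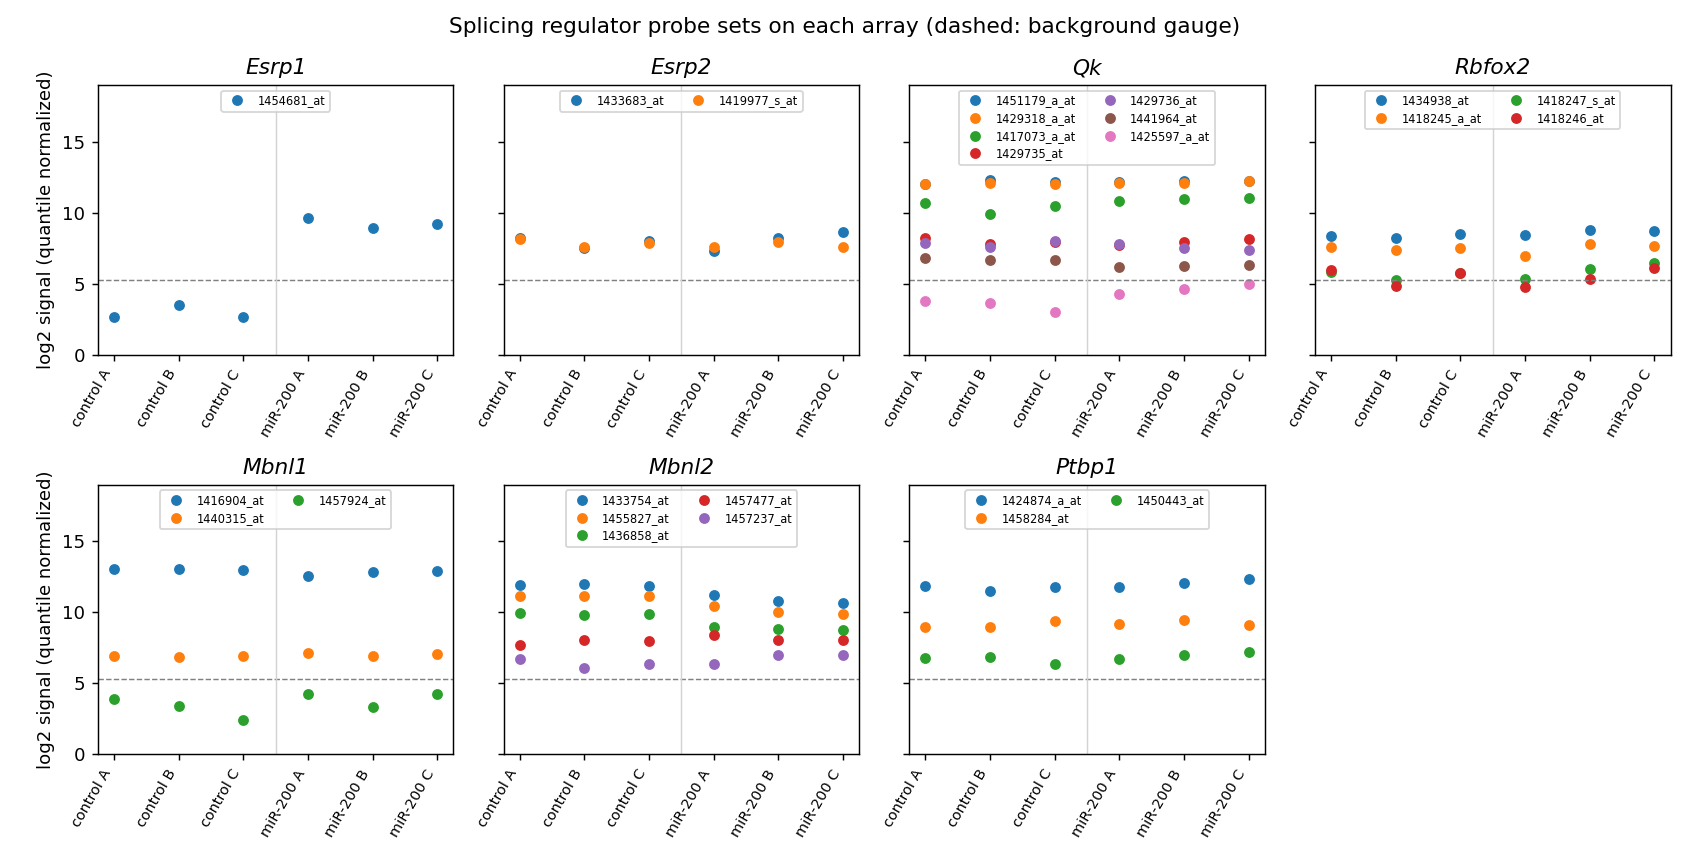
Log2 signal (vertical axis, quantile normalized) of each member probe set on each of the 6 arrays (horizontal axis), 1 panel per gene and 1 colour per probe set, with the background gauge at 5.28 dashed. The probe set of Esrp1 lies under the gauge on the 3 control arrays and between 8.90 and 9.64 on the miR-200 arrays, and the upper 3 probe sets of Mbnl2 are lower on all miR-200 arrays.

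Esrp1, the splicing factor most restricted to epithelial cells, went from background to a clear signal. Its probe set 1454681_at read 2.68, 3.49 and 2.68 on the control arrays, given here and later in the order A, B, C, and 9.64, 8.90 and 9.23 on the miR-200 arrays. All control values lay under the gauge and all miR-200 values lay well above it. The means were 2.95 ± 0.47 (SD, n = 3) and 9.26 ± 0.37 (SD, n = 3), which is at least 15.8-fold higher in the miR-200 cells. The fitted log2 difference was 6.31 ± 0.31 (SE, limma adjusted p = 0.00389), with a 95% confidence interval of 5.53 to 7.09. Of all 45037 probe sets none had a higher fitted difference in this fit, although its exact size depends on control values that lie under the gauge. The highest of the control values came from control B and the highest of the miR-200 values from miR-200 A, the arrays that stood apart. Without that pair the fitted difference was 6.39 (limma adjusted p = 0.0480). Without 1 array at a time the adjusted p in limma lay between 0.0141 and 0.0473. With the letters A, B and C as a replicate block the call was lost (limma adjusted p = 0.148).

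Esrp2, the paralog with overlapping targets, was already measured in the control cells and did not pass the test. Its brighter probe set, 1433683_at, read 8.19, 7.54 and 8.02 on the control arrays and 7.28, 8.21 and 8.65 on the miR-200 arrays. The groups overlapped, and the lowest value of each group came from the array that stood apart. The log2 difference was 0.13 ± 0.40 (limma adjusted p = 0.923), with a 95% confidence interval of -0.86 to 1.11. The other probe set, 1419977_s_at, differed by -0.13 ± 0.21 (95% confidence interval -0.65 to 0.39). Without the pair of arrays that stood apart the differences were 0.32 for 1433683_at and -0.23 for 1419977_s_at. The suffix _s_at marks probe sets that can also detect transcripts of other genes. The change of Esrp1 exceeded that of Esrp2 by 6.18 on the log2 scale, with standard deviations of 0.803 over the control and 0.998 over the miR-200 arrays for the difference between the probe sets. The exact size of this excess depends on Esrp1 control values that lie under the gauge. An exact two-sided permutation test over the 6 arrays gave p = 0.10, the smallest that 3 against 3 allows.

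Mbnl2, a muscleblind splicing factor, was lower in the miR-200 cells by about the same amount on 3 of its 5 probe sets. The probe set past the threshold, 1436858_at, read 9.96, 9.82 and 9.91 on the control arrays and 8.97, 8.81 and 8.74 on the miR-200 arrays. The groups were separated by more than the range within either of them. It fell by 1.06 ± 0.13 on the log2 scale, 2.08-fold (limma adjusted p = 0.0425).

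The brightest Mbnl2 probe set, 1433754_at, read 11.91, 12.03 and 11.88 against 11.22, 10.83 and 10.63, a log2 difference of -1.04 ± 0.19 (limma adjusted p = 0.0974). The probe set 1455827_at read 11.18, 11.18 and 11.18 against 10.46, 10.05 and 9.92, a log2 difference of -1.04 ± 0.18 (limma adjusted p = 0.0904). In both, the miR-200 cultures lay below every control culture and miR-200 A was the highest of its group. The probe sets 1436858_at and 1455827_at were designed from the same source sequence, so the 3 are not independent views of the gene. The remaining 2 probe sets pointed the other way without passing, and on 1457477_at every miR-200 culture lay above every control culture. Probe set 1457477_at differed by 0.28 ± 0.18 and 1457237_at by 0.39 ± 0.27 (limma adjusted p = 0.546 and 0.576). The call for 1436858_at was lost without control B and miR-200 A (-1.16, limma adjusted p = 0.0756), without any 1 of the 6 arrays (limma adjusted p from 0.0574 without miR-200 A to 0.190 without miR-200 B) and with the replicate block (limma adjusted p = 0.321). The difference itself stayed between -1.19 and -1.01 over 14 alternatives. The brightest probe set passed in 4 of 15 alternatives, and the mean of all 5 probe sets differed by -0.49 (limma adjusted p = 0.149).

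Mbnl1, the paralog of Mbnl2, did not pass. Its brightest probe set, 1416904_at, read 13.04, 13.09 and 13.01 on the control arrays and 12.55, 12.85 and 12.93 on the miR-200 arrays. All miR-200 values were lower, the lowest on miR-200 A, and the log2 difference was -0.27 ± 0.15 (limma adjusted p = 0.482, 95% confidence interval -0.64 to 0.10). The probe set 1440315_at differed by 0.13 ± 0.13, and 1457924_at had both means under the gauge. Without control B and miR-200 A the differences of 1416904_at and 1440315_at were -0.14 and 0.036. Whether the change of Mbnl2 differs from that of Mbnl1 was not tested.

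Qk, the quaking RNA-binding protein that also promotes circular RNAs in mesenchymal cells, gave no common direction over its 7 probe sets. None passed, and 2 were higher and 1 lower at an unadjusted p under 0.05 in limma, against 14.1% of all probe sets in either direction. The brightest, 1451179_a_at, read 12.05, 12.28 and 12.18 on the control arrays and 12.15, 12.21 and 12.21 on the miR-200 arrays. These values overlap, and the log2 difference of 0.02 ± 0.12 has a 95% confidence interval of -0.29 to 0.33. That interval reaches down to a decrease of 0.29 on the log2 scale in the transcripts this probe set detects. It covers only the spread between these cultures. The next brightest, 1429318_a_at, differed by 0.09 ± 0.12.

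Groups did not overlap for 3 of the 7 Qk probe sets, against 21.3% of all probe sets. These 3 point in different directions. Probe set 1417073_a_at read 10.66, 9.93 and 10.49 in the controls and 10.84, 10.97 and 11.04 in the miR-200 cells, a log2 difference of 0.59 ± 0.22 (limma adjusted p = 0.330). Here control B was the lowest of all 6 arrays. Probe set 1441964_at read 6.84, 6.63 and 6.67 against 6.15, 6.21 and 6.29, a log2 difference of -0.49 ± 0.13 (limma adjusted p = 0.191). Probe set 1425597_a_at was higher by 1.12 ± 0.29 (limma adjusted p = 0.191) with both means under the gauge, so no fold is given. The probe sets 1429735_at and 1429736_at, designed from 1 source sequence, differed by -0.07 ± 0.19 and -0.26 ± 0.19. Without control B and miR-200 A the difference was 0.094 for 1451179_a_at, -0.046 for 1429735_at and -0.51 for 1429736_at. The suffix _a_at marks probe sets that detect several transcripts of 1 gene. Which Qk transcripts each probe set detects was not analysed here.

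Rbfox2 showed overlapping groups on all 4 probe sets. The brightest, 1434938_at, read 8.34, 8.22 and 8.51 against 8.45, 8.77 and 8.72, a log2 difference of 0.29 ± 0.16 (limma adjusted p = 0.472, 95% confidence interval -0.10 to 0.68). The other 3 come from 1 source sequence and differed by -0.03 ± 0.25 (1418245_a_at), 0.32 ± 0.35 (1418247_s_at) and -0.13 ± 0.45 (1418246_at). On each of these 3, control B and miR-200 A had the lowest values of all arrays. Without that pair 1418245_a_at differed by 0.15.

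Ptbp1, which holds many alternative exons out of the mRNA, had slightly higher means in the miR-200 cells on all 3 probe sets, none past the threshold. The brightest, 1424874_a_at, read 11.86, 11.54 and 11.79 in the controls and 11.81, 12.10 and 12.33 in the miR-200 cells. The groups overlapped through miR-200 A, and the log2 difference was 0.35 ± 0.19 (limma adjusted p = 0.474, 95% confidence interval -0.12 to 0.82). The other probe sets, 1458284_at and 1450443_at, differed by 0.16 ± 0.18 and 0.30 ± 0.20, the latter by 0.50 without control B and miR-200 A. The 3 differences stayed above 0 under every alternative that was run.

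**Figure D2:**
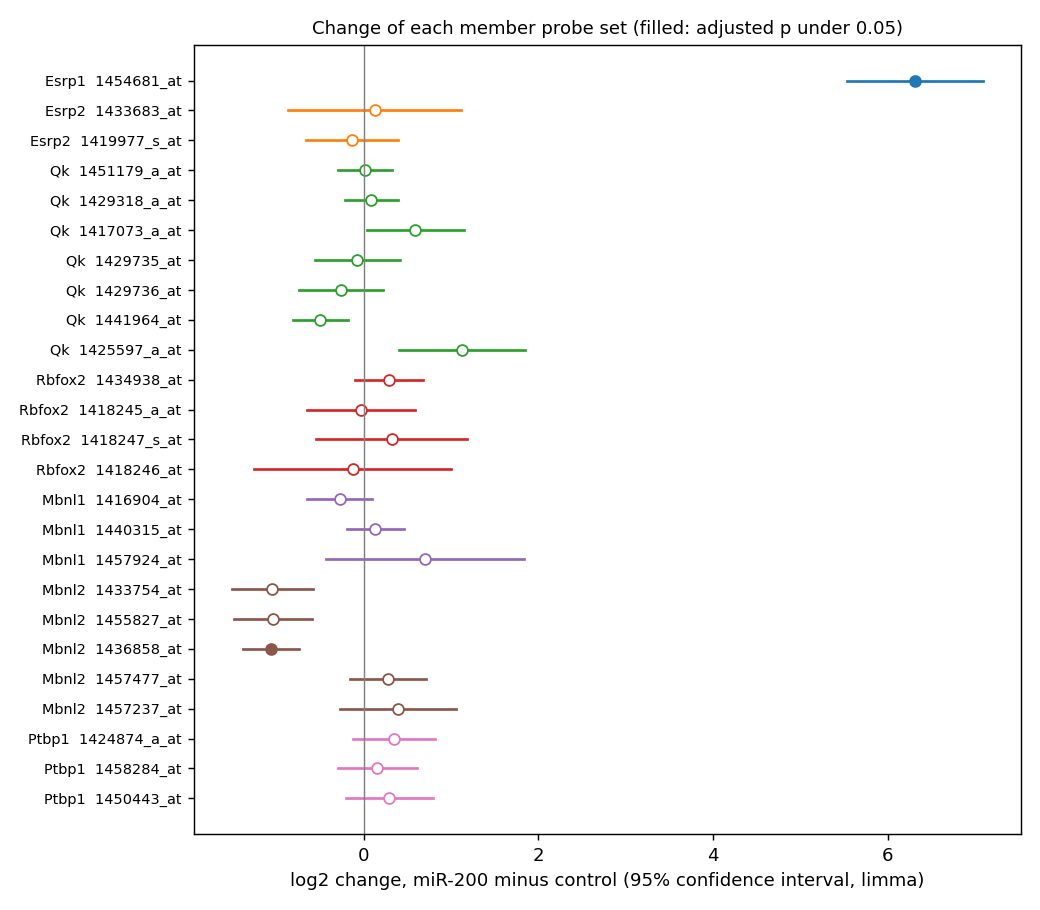
Log2 difference, miR-200 minus control (horizontal axis), of the 25 member probe sets (rows, coloured by gene), with 95% confidence intervals from limma; filled points have an adjusted p under 0.05. The point of Esrp1 lies at 6.31 far from the rest, and the 3 lower probe sets of Mbnl2 lie close to -1.

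Other splicing regulators gave no call. Here 9 relatives of the members, from the Rbfox, Mbnl, Ptb and quaking-related families, were counted by their brightest probe sets. Of these, 0 rose and 0 fell, against 0.945% of all genes that passed. An unadjusted p under 0.05 in limma was found for 0, against 14.8% of all genes. Ptbp2, the neuronal relative of Ptbp1, differed by 0.39 ± 0.19 and Ptbp3 by -0.22 ± 0.14. Sf1, the branch point binding protein related to Qk, differed by 0.22 ± 0.14 and Rbfox3 by -0.19 ± 0.17. The third muscleblind gene, Mbnl3, named after its values were seen, read 10.46, 8.85 and 10.32 in the controls and 8.94, 10.53 and 10.68 in the miR-200 cells. Its low values came from control B and miR-200 A, and the groups overlapped (limma adjusted p = 0.939).

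Among 52 measured of 58 further regulators, mostly SR and hnRNP proteins, 0 passed. Before adjustment, limma gave p under 0.05 for 6 regulators with higher and 0 with lower means, against 14.8% of all genes in either direction. The differences of 44 were above 0 and of 8 below it, against 9133 and 9008 of all genes. Their median was 0.15, against 0.0014 over all genes. After centring on array medians the split was 36 and 16, against 7660 and 10533 of all genes. The medians were then 0.07 for the regulators and -0.07 for all genes. Rbm38, an RNA-binding protein induced by p53, read 8.57, 8.70 and 8.65 in the controls and 9.22, 9.24 and 9.14 in the miR-200 cells, the smallest p of the list (0.56 ± 0.12, limma adjusted p = 0.132). Srsf10, an SR-like splicing repressor, differed by 0.55 ± 0.16, U2af2, the large subunit of the factor that binds the polypyrimidine tract at the 3′ splice site, by 0.41 ± 0.13 and Hnrnpa1 by 0.35 ± 0.14.

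Genes whose exons are known to be regulated by the Esrp proteins were examined for their total signal. Of 24 listed, 22 were measured and 0 passed on their brightest probe set, against 0.945% of all genes. The median log2 difference was 0.18, against 0.0014 over all genes. The differences of 15 were above 0 and of 7 below it, against 9133 and 9008 of all genes. After centring on array medians the split was 12 and 10, against 7660 and 10533 of all genes. With no adjustment, limma gave p under 0.05 for 5 higher genes and 1 lower gene, against 14.8% of all genes in either direction.

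Enah, an actin regulator of the Ena/VASP family with an epithelial exon included through Esrp, had higher means in the miR-200 cells on all of its 6 probe sets, of which 2 had both means under the gauge. The dimmer probe set 1421624_a_at read 6.05, 5.87 and 5.61 in the controls and 7.42, 7.14 and 7.25 in the miR-200 cells, and it rose by 1.42 ± 0.17, 2.68-fold (limma adjusted p = 0.0414). The brightest, 1424800_at, read 9.75, 10.62 and 9.79 against 11.76, 11.47 and 11.57, a log2 difference of 1.54 ± 0.27 (limma adjusted p = 0.0960). Control B was the highest control on that probe set, and without it the difference was 1.83 and passed (limma adjusted p = 0.0484). The groups did not overlap on 5 of the 6, against 21.3% of all probe sets. The call for 1421624_a_at was lost without any 1 of the 6 arrays (limma adjusted p from 0.0769 without miR-200 A to 0.180 without miR-200 C) without control B and miR-200 A (1.36, limma adjusted p = 0.117) and with the replicate block (limma adjusted p = 0.273).

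The classic Esrp targets did not pass in total signal. Fgfr2, the fibroblast growth factor receptor with epithelial and mesenchymal exon forms, differed by 0.15 ± 0.15 (limma adjusted p = 0.705), and Cd44, the hyaluronan receptor, by -0.07 ± 0.19 (limma adjusted p = 0.916). Ctnnd1, which encodes p120-catenin, differed by 0.34 ± 0.12 without overlap between the groups (limma adjusted p = 0.309). These values are from the brightest probe set of each gene. The Ctnnd1 probe sets 1422450_at and 1445830_at differed by 0.12 ± 0.19 and -0.13 ± 0.18, with overlapping groups. Fgfr2 1420847_a_at differed by 0.16 ± 0.23, and 1443211_at by -0.88 ± 0.24 with both means under the gauge (limma adjusted p = 0.211). Plekha1 and Arhgap17 differed by 0.72 ± 0.19 and 0.50 ± 0.15, and Exoc7, an exocyst subunit, by -0.66 ± 0.14, with limma adjusted p of 0.196, 0.243 and 0.139. In all 3 the groups did not overlap, as in 10 of the 22 listed genes and 4280 of all 18193 genes.

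**Figure D3:**
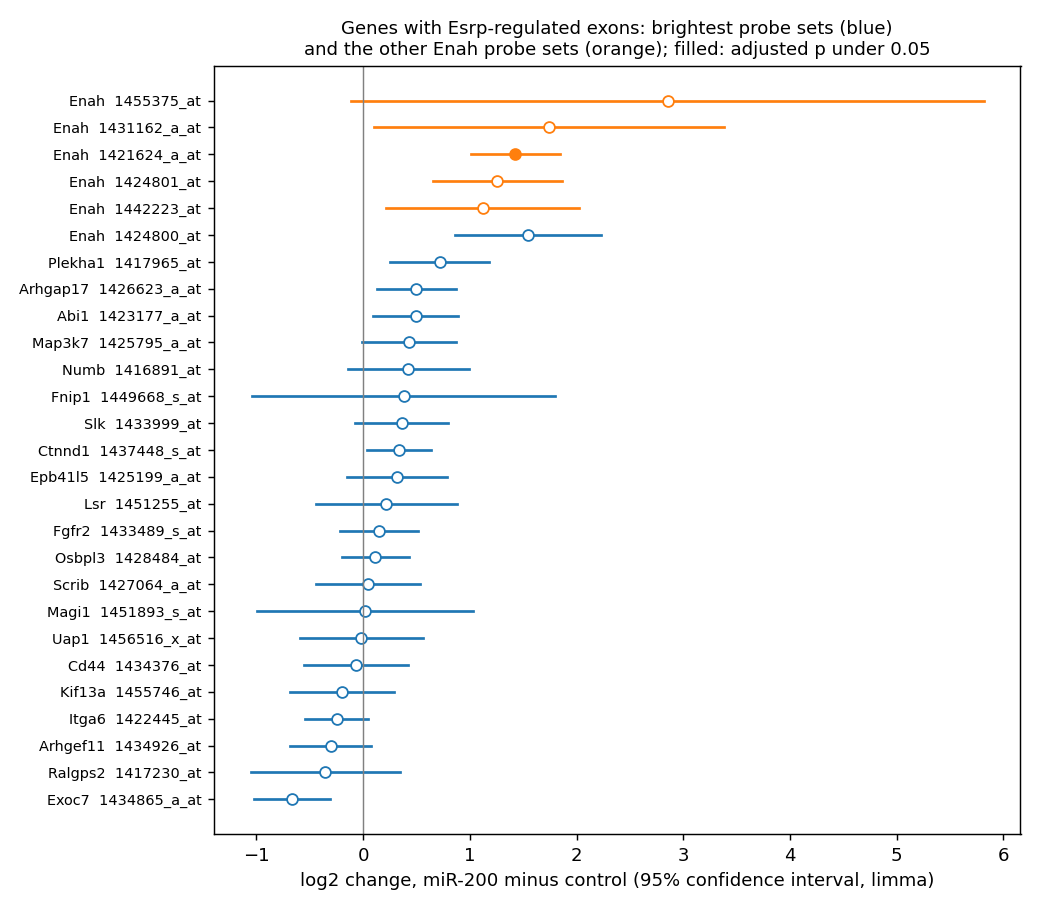
Log2 difference, miR-200 minus control (horizontal axis, 95% confidence intervals from limma), of the brightest probe set of 22 genes with Esrp-regulated exons (blue) and of the other 5 probe sets of Enah (orange); filled points have an adjusted p under 0.05. The Enah probe sets lie between 1.12 and 2.85, and the brightest probe sets of the other genes between -0.66 and 0.72.

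Of 11 transcription factors that act on Esrp genes or their epithelial state, 0 passed, against 0.945% of all genes. The limma p before adjustment fell below 0.05 for 3 factors, all with lower means in the miR-200 cells. Over all genes this share was 14.8%, counting either direction. Zeb1 read 9.15, 8.53 and 8.98 against 7.15, 8.21 and 8.04, and Zeb2 read 8.37, 8.15 and 8.38 against 7.06, 7.79 and 7.49. On these, their brightest probe sets, both were lower in each miR-200 culture, lowest on miR-200 A, without passing (limma adjusted p = 0.255 and 0.195). The Zeb2 probe sets 1422748_at and 1456389_at were also lower (-0.68 ± 0.21 and -1.04 ± 0.34). Zeb2 1454200_at and 1458941_at were higher (0.18 ± 0.29 and 0.31 ± 0.14), the latter in each miR-200 culture. Zeb1 1443005_at differed by 0.07 ± 0.16, and Zeb1 1420243_at and 1446127_at had both means under the gauge. None of these passed. Twist1 had both means under the gauge. Grhl2, an activator of epithelial genes, read 6.36, 4.91 and 6.12 against 6.66, 6.76 and 6.80 (limma adjusted p = 0.373).

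The genes whose profiles lay nearest to that of Esrp1 over the 6 arrays were Cwh43, Cldn4, Serinc2, Macc1, Igfbp3 and Cldn7. The measure was the root mean square distance between log2 profiles centred on their own means, which rose from 0.649 for Cwh43 to 1.17 for Cldn7, and Pearson's r with Esrp1 was at least 0.97. All 6 arrays share the difference between the groups, so these values describe that step and have no test. Like Esrp1, Cwh43, Cldn4, Serinc2 and Macc1 had control means under the gauge, whereas the growth factor binding protein gene Igfbp3 and the claudin gene Cldn7 had control means above it. The values of Cldn4, a tight junction claudin, were 4.13, 3.33 and 3.10 in the controls and 10.33, 8.78 and 8.60 in the miR-200 cells, highest on miR-200 A as for Esrp1.

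**Figure D4:**
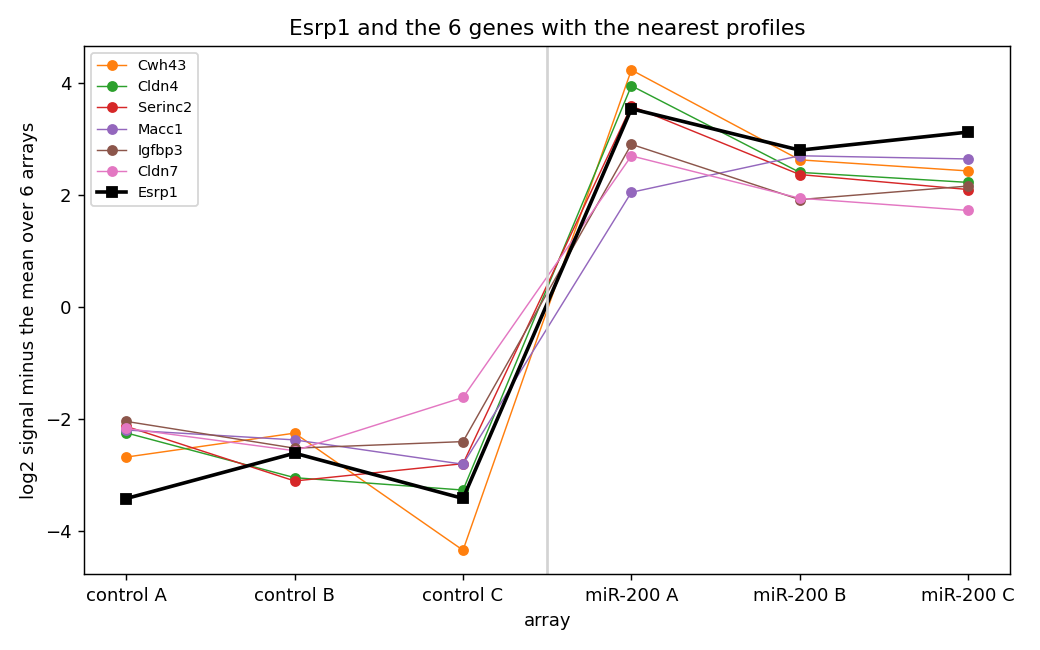
Log2 signal minus each gene's mean over the 6 arrays (vertical axis) for Esrp1 (black squares) and the 6 genes nearest to it (coloured circles) on each array (horizontal axis); lines only join the points of a gene. All 7 genes lie below 0 on the control arrays and above 0 on the miR-200 arrays, at root mean square distances from Esrp1 of 0.649 to 1.17.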

How the data were processed

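The authors deposited 1 table of log2 signals per probe set for 6 arrays of biotin-labelled cRNA. The log base follows from the values, and their summarisation and scaling are not given in the sources used here. Per the labels the design is 430A 2.0, whereas the table holds 45101 probe sets, annotated as the larger design of that family. Array medians spanned 0.092 and interquartile ranges 0.174, more than the 0.1 allowed, so arrays were quantile normalized. Without 64 control probe sets, 45037 remained. Symbols were updated by gene number to RefSeq (GRCm38.p6), which matched 34741 of 34945 single-symbol probe sets. Lists count each gene once, by the brightest of its probe sets, over 18193 genes. limma 3.58.1 (lmFit, eBayes, two-sided) in R 4.3.3 compared the groups, and the fit was tested on simulated data.

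The members, 4 pathway lists, 5 marker lists and alternatives were chosen with earlier results of these data known. Named are all members, up to 4 genes of each pathway list by smallest p, Fgfr2, Cd44, Ctnnd1, Enah, Zeb1 and Zeb2, and the 6 genes nearest to Esrp1. The text gives no p adjusted over a list alone. Alternatives were the values as deposited, centring, leaving out the dimmest 40%, a variance trend, array weights, a replicate block, the mean of probe sets, each array left out, control B and miR-200 A left out, and a 2-level term for them. Leaving out arrays kept the normalization and the chosen probe sets. A further allele that the mouse and both groups share is not reported here.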

Additional observations from a re-analysis of the deposited data

How the results depend on the processing

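Esrp1 was past the threshold in 14 of 15 alternatives, with differences of 6.12 to 6.58, and lost its call with the replicate block (6.31). With that block 0 member probe sets and 0 of all probe sets were higher or lower. Arrays of 1 letter had deviations with correlations of -0.58 (A), -0.67 (B) and 0.43 (C), so the letters were not taken to pair the cultures. Lower member probe sets numbered 3 without the dimmest 40%, with array weights and with the trend, 2 under the 2-level term, 0 without control B and miR-200 A, and 0 to 1 without 1 array. The brightest Mbnl2 probe set passed without the dimmest 40% (-1.04), with the trend (-1.04), array weights (-1.10) and the term (-1.04). The term was read from the same values, so its p-values are too small. In these 4 settings 1 gene with Esrp-regulated exons, Enah, was higher, and 0 or 1 without 1 array. Over all probe sets, in the same order, 340, 328, 478 and 309 were higher and 583, 623, 813 and 637 lower, and without the pair 18 and 85. Without 1 array, higher ones ranged from 13 to 84 and lower ones from 19 to 244, with the lowest counts when control A and the highest when miR-200 A was left out.

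Of 520 probe set results under alternatives, 19 changed sign, and none of these 19 was a call before or after. Esrp2 had -0.0029 as the mean of its probe sets and -0.18 to 0.51 without 1 array (1419977_s_at -0.28 to 0.020). Qk had -0.024 as deposited, -0.094 centred and -0.039 to 0.074 without 1 array; 1429318_a_at had -0.022 centred and 1429735_at -0.19 to 0.051 without 1 array. Rbfox2 1418245_a_at had 0.13 with array weights, 0.15 without the pair and -0.17 to 0.22 without 1 array, and 1418246_at -0.47 to 0.19. Mbnl1 had 0.19 as the mean of its probe sets, and Cd44 ranged from -0.16 to 0.094 without 1 array. The cause was not tested. For 3 of the 25 member probe sets at least 1 group mean was under the gauge, so their folds are bounds or are not given.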
